A study of Mus musculus with 8 samples.

Results

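The 34 interferon response genes described here are genes that interferon induces in most mouse cells, taken by name from a list. That list was chosen with earlier results of these data known. All 34 were found by symbol among the 37417 genes of the deposited table, and all 34 were among the 14800 genes expressed well enough to be tested. They were measured by RNA sequencing of polyadenylated RNA from epididymal white fat, the visceral fat pad beside the epididymis, of male C57Bl/6 mice fed chow. There were 4 wild-type (WT) libraries and 4 knockout (KO) libraries of the genotype Adiponectin-Cre ERT2-Atg3 flox/flox, in which tamoxifen switches on a Cre recombinase driven by the adiponectin promoter and so removes a floxed part of Atg3 in adipocytes. Mice of both genotypes received tamoxifen. The libraries are called WT1 to WT4 and KO1 to KO4, as numbered in the labels. The labels state neither the mice's ages nor whether the WT mice carried the Cre or the floxed alleles.

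Interferons are secreted proteins that cells release on sensing viral nucleic acid or other danger signals. Type I interferons bind the Ifnar1-Ifnar2 receptor, whose kinases activate Stat2. It joins Irf9 in a complex that binds a promoter element called ISRE. Type II interferon (Ifng), made mainly by T and NK cells, acts through the Ifngr1-Ifngr2 receptor and a different promoter element called GAS. The induced genes encode nucleic acid sensors, antiviral effectors, the ubiquitin-like tag Isg15, large GTPases, and the pathway's own signalling proteins, and genes of this kind often rise and fall together. In fat they are expressed by adipocytes as well as by macrophages, lymphocytes and vessel cells. In whole tissue, fewer cells of a type and less RNA per cell cannot be told apart.

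Promoter sequences were searched for the ISRE and GAS elements. Of the 34 genes, 26 had a promoter in the RefSeq table (build GRCm38.p6, the same build as mm10). In the 250 bases upstream of the gene start, 15 of those 26 (57.7%) held the core of the ISRE, GAAANNGAAA, on either strand, against 936 of 27025 genes in the table (3.46%). The core of the GAS, TTCNNNGAA, which reads the same on both strands, was found in 5 of 26 (19.2%) against 8.13% of all genes. The ISRE core was present in 5 of 5 GTPase genes, 5 of 9 effector genes, 3 of 7 sensor genes, 1 of 2 genes of the Isg15 tag and 1 of 3 signalling genes. A match is a description of these letters, not evidence of a bound site. Shown here are 5 promoters with the ISRE core, 1 for each role, and that of Ifi35, which held neither core and whose fold change had the narrowest interval. Each is printed 5′ to 3′ on the gene's own strand, with matches in capitals, where overlapping matches run together and a match on the other strand reads TTTCNNTTTC. The windows are Stat2 at chr10:128270248-128270497 (plus strand), Oas3 at chr5:120777660-120777909 (minus strand), Isg15 at chr4:156200819-156201068 (minus strand), Ifit1 at chr19:34640639-34640888 (plus strand), Irgm1 at chr11:48871421-48871670 (minus strand) and Ifi35 at chr11:101448162-101448411 (plus strand).
Stat2: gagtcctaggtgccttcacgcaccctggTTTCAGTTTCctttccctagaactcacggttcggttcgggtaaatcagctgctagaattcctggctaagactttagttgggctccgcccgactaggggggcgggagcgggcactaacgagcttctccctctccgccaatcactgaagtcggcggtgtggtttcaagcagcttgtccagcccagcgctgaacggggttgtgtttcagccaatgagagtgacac
Oas3: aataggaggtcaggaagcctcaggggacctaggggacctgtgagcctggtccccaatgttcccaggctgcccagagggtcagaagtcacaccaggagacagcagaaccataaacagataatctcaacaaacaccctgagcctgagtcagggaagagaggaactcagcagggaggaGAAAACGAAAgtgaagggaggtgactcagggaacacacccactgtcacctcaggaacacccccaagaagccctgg
Isg15: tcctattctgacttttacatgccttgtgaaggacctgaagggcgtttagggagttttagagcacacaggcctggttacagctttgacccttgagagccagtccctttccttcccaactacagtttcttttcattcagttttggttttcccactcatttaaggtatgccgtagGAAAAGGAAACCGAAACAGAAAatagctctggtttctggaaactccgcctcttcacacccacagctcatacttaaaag
Ifit1: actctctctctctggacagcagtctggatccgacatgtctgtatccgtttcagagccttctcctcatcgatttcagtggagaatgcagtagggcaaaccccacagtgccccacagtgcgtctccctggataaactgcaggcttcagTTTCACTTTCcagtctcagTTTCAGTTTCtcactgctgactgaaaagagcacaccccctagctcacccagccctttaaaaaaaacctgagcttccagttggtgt
Irgm1: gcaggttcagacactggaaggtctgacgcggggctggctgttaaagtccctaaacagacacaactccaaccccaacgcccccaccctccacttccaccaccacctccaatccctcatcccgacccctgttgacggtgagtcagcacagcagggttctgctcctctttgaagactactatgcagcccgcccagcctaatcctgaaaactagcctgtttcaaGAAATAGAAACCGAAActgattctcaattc
Ifi35: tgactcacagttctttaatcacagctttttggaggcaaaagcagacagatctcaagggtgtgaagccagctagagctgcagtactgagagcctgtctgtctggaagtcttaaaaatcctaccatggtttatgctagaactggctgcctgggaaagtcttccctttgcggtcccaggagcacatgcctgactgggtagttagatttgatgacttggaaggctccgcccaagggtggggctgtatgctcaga
Isg15 held 3 overlapping matches, the last of them beginning 66 bases before the gene start. Ifit1 held 2, the nearer beginning 85 bases before the start. Irgm1 held 2 overlapping matches, the last beginning 24 bases before the start, whereas the single match of Stat2 began 222 bases before it.

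The data comprise 8 libraries of 10986375 to 21688464 counted reads. Wild-type library 1 was the shallowest of its genotype, and knockout library 1, with 12952190 reads, the shallowest of its own. Atg3, the deleted gene, was checked first. It stood at 49.1, 44.5, 53.6 and 53.5 CPM (read counts scaled to library size with TMM factors) in WT1 to WT4. It was 30.5, 32.2, 30.8 and 27.8 CPM in KO1 to KO4, so the genotypes did not overlap. Its log2 fold change of knockout against wild-type (log2FC) was -0.73 ± 0.09 (SE), with an adjusted p of 0.0168 by edgeR's quasi-likelihood test with Benjamini-Hochberg adjustment over all 14800 genes. Over all genes, edgeR called 60 at an adjusted p under 0.05 (41 higher, 19 lower in knockout fat). Adipocyte markers summed to 32531 to 39865 CPM in wild-type and 27771 to 32347 CPM in knockout libraries, without overlap. Of these 10 genes 0 were called by edgeR (0.405% of all genes), 3 had an unadjusted p under 0.05 (16.2%) and DESeq2 called 2 (5.48%).

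Comparing the genotypes, no difference in the interferon response genes passed the test. Of the 34 genes, edgeR called 0, against 0.405% of all genes tested, and 0 reached an unadjusted p under 0.05, against 16.2% of all genes. DESeq2 also called 0 of the 34, where it called 5.48% of all genes, and limma-voom called 0. In 0 of the 34 did the 4 knockout libraries lie apart from the 4 wild-type libraries, which they did in 8.86% of all genes. The lowest adjusted p by edgeR was 0.441, for Xaf1. The log2FC was below 0 in 27 of 34 (52.4% of all genes) and above 0 in 7, with a median of -0.15 against -0.01 over all genes, and ran from -0.49 (Mx2) to 0.17 (Igtp). The precision differed widely among the genes. For Ifi35, the best determined, the 95% interval of the log2FC ran from -0.19 to 0.17. For Oas3, the least, it ran from -1.49 to 1.12, which takes in more than a 2-fold change in either direction.

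**Figure D1:**
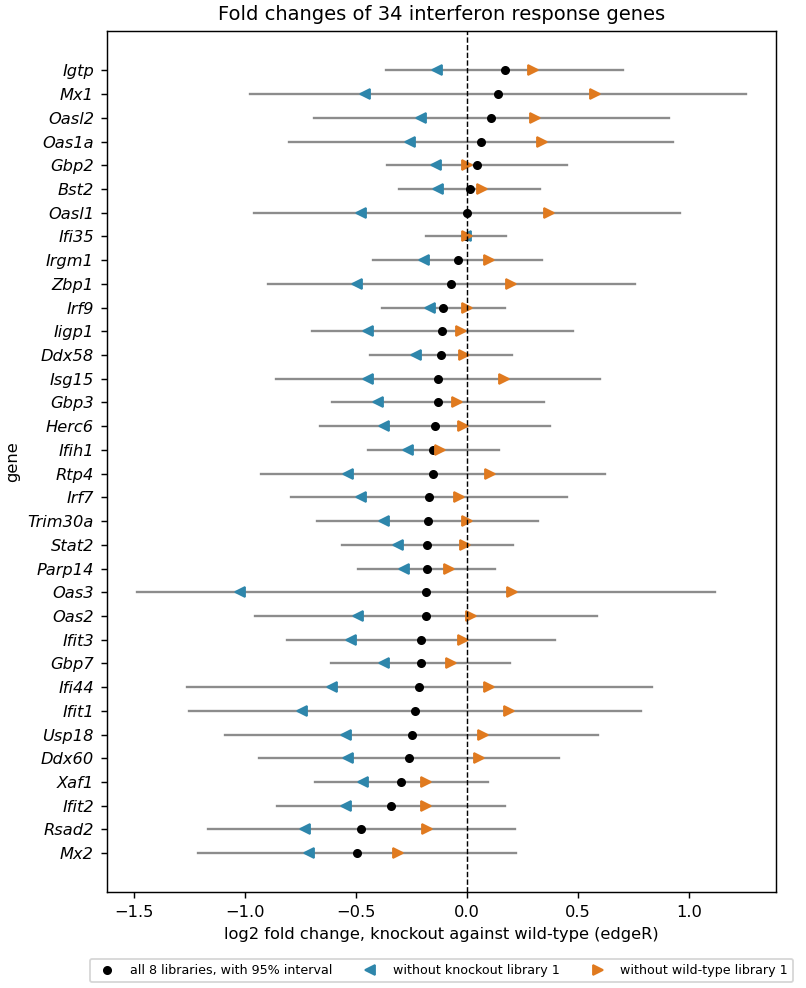
Log2 fold changes of the 34 interferon response genes, knockout against wild-type, on the horizontal axis; black points use all 8 libraries with 95% intervals as grey lines (edgeR), blue triangles leave out knockout library 1 and orange triangles leave out wild-type library 1. Every grey interval spans 0. All 34 blue triangles lie below 0, with a median of -0.44, while the orange triangles have a median of 0.00. Each library left out was the highest of its genotype in nearly all of these genes, which in itself moves the triangles.

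Within each genotype, 1 library stood above the others across nearly all of these genes. Wild-type library 1 had the highest level among the wild-type libraries in 31 of 34 genes (32.0% of all genes), and knockout library 1 the highest among the knockout libraries in 33 of 34 (24.6% of all genes). Both held in 31 genes, against 11.9% of all genes. These 2 libraries were the top 2 of all 8 in 30 of 34 genes, against 6.70% of all genes. The single highest library was wild-type 1 for 16 genes, knockout 1 for 16, wild-type 2 for 1 and knockout 3 for 1. The exceptions in wild-type fat were Ifih1, highest in library 2, and Gbp2 and Ifi35, highest in library 3. The exception in knockout fat was Ifi35, highest in library 3.

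As a summary of each library, the deviation of log2 CPM from the gene's own mean over the 8 libraries had a median over the 34 genes of 0.54 in wild-type library 1 and 0.55 in knockout library 1. Wild-type libraries 2, 3 and 4 stood at 0.15, -0.14 and -0.16. Knockout libraries 2, 3 and 4 stood at -0.23, -0.23 and -0.30. The same median over all genes lay between -0.02 and 0.01 in every library. Wild-type library 1 exceeded the mean of the other wild-type libraries by a median factor of 1.51, from 0.871 for Gbp2 to 2.43 for Mx1. Knockout library 1 exceeded the mean of the other knockout libraries by a median factor of 1.84, from 0.993 for Ifi35 to 4.20 for Oas3. Over all genes the same medians were 0.997 and 0.985. Between these 2 libraries neither was the higher on balance, since knockout library 1 exceeded wild-type library 1 in 17 of 34 genes.

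**Figure D2:**
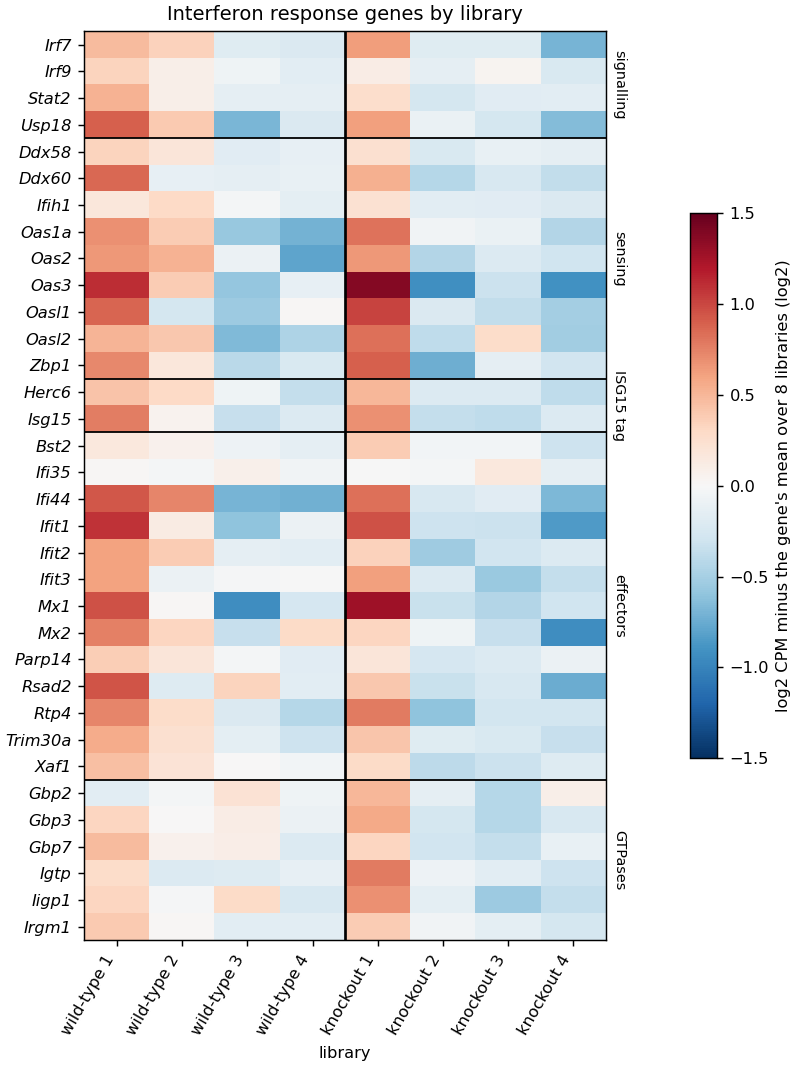
Each row is 1 of the 34 genes, grouped by role, and each column 1 library; colour gives log2 CPM minus the gene's mean over the 8 libraries, red for higher and blue for lower. The columns of wild-type library 1 and knockout library 1 are red in nearly every row (33 of 34 genes each), and Ifi35 is pale throughout.

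The signalling genes are those by which interferon amplifies or limits its own response. Stat2 carries the signal of the type I receptor to the nucleus, Irf9 supplies the DNA contact of that complex, Irf7 drives further interferon production, and Usp18 removes the Isg15 tag and blocks the type I receptor. Stat2 was the most abundant of them per length, at a mean of 14.0 FPKM (reads scaled to exon length and library total). It stood at 87.2, 64.6, 55.1 and 55.3 CPM in WT1 to WT4 and at 72.7, 50.5, 53.9 and 54.4 CPM in KO1 to KO4. Library 1 was the highest in each genotype, and the ranges overlapped. Stat2 averaged 65.5 ± 15.1 CPM in WT and 57.9 ± 10.1 CPM in KO fat (SD, n = 4 each), a log2FC of -0.18 ± 0.17 (SE) with an adjusted p of 0.652 by edgeR. The log2FC of the other 3 signalling genes lay between -0.25 (Usp18) and -0.11 (Irf9). Irf7 lies across from Phrf1 on the opposite strand and Irf9 overlaps Rnf31 on the same strand. No source used here states the strand setting of the counting, so both counts are uncertain.

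The nucleic acid sensors comprise Ifih1 (MDA5) and Ddx58 (RIG-I), which detect viral RNA, Ddx60, a related helicase, Zbp1, a sensor of Z-form nucleic acid, and the oligoadenylate synthetase family. Of that family, Oas1a, Oas2 and Oas3 belong to the group that makes the activator of RNase L in response to double-stranded RNA. Oasl1 and Oasl2 are the synthetase-like members. Oasl2 was the most abundant sensor per length, at 9.84 FPKM. Its levels were 50.4, 47.0, 22.5 and 25.7 CPM in WT1 to WT4 and 62.6, 27.2, 43.0 and 24.7 CPM in KO1 to KO4. Each genotype held 2 high and 2 low libraries, KO1 being the highest of the 8, and the ranges overlapped. Its mean was 36.4 ± 14.3 CPM in WT and 39.4 ± 17.5 CPM in KO fat (SD, n = 4 each), with a log2FC of 0.11 and an interval from -0.69 to 0.91. Over the 9 sensors the log2FC was below 0 in 6 and above 0 in 3, from -0.26 (Ddx60) to 0.11. Library 1 stood out most in this group. Oas3, the least abundant of the 34 genes at 0.705 FPKM and picked here after its values were seen, stood at 6.62, 4.00, 2.05 and 2.82 CPM in WT1 to WT4. In KO1 to KO4 it stood at 8.003, 1.63, 2.45 and 1.63 CPM, knockout library 1 being the highest of the 8. Ddx60, also picked after its values were seen, was 21.2 CPM in wild-type library 1 and 10.6 to 10.7 CPM in the other 3. It was 16.9 CPM in knockout library 1 and 8.67 to 9.81 CPM in the other 3.

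Isg15 is a ubiquitin-like protein attached to other proteins during the interferon response, and Herc6 is the main ligase that attaches it in mice. Isg15 stood at 12.1, 7.35, 5.58 and 6.15 CPM in WT1 to WT4 and at 11.4, 5.56, 5.45 and 6.15 CPM in KO1 to KO4. The libraries numbered 1 were close to each other and well above the remaining 6. Isg15 averaged 7.80 ± 2.98 CPM in WT and 7.14 ± 2.85 CPM in KO fat (SD, n = 4 each), with a log2FC of -0.13 ± 0.32 (SE). Herc6 had a log2FC of -0.14.

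The effectors act on viruses or infected cells directly. Ifit1, Ifit2 and Ifit3 bind foreign or incompletely capped RNA or act with those that do, Rsad2 (viperin) makes a chain-terminating nucleotide, Mx1 and Mx2 are dynamin-like GTPases, and Bst2 (tetherin) holds budding virus at the cell surface. Bst2 was the most abundant of all 34 genes per length, at 64.1 FPKM. It stood at 54.0, 50.8, 45.9 and 44.0 CPM in WT1 to WT4 and at 63.2, 47.1, 47.3 and 39.2 CPM in KO1 to KO4. The knockout libraries spanned the wild-type range on both sides. Its mean was 48.7 ± 4.56 CPM in WT and 49.2 ± 10.1 CPM in KO fat (SD, n = 4 each), a log2FC of 0.01 with an interval from -0.30 to 0.33. Among the 13 effectors the log2FC was below 0 in 11 and above 0 in 2, with a median of -0.21. The furthest below 0 were Mx2 at -0.49 ± 0.32 (SE) and Rsad2 at -0.48 ± 0.31 (SE), with adjusted p-values of 0.487 and 0.486 by edgeR. Mx1, the close relative of Mx2, had a log2FC of 0.14. Ifi35, at 21.3 FPKM, did not share the library pattern, with 37.2, 36.1, 38.8 and 35.4 CPM in WT1 to WT4 and 36.6, 36.0, 40.9 and 33.6 CPM in KO1 to KO4. It was picked after its values were seen, as the gene with the narrowest interval. Reads of Ifit3, Oas1a, Trim30a and the guanylate-binding protein (Gbp) genes can fall on near-identical relatives, so the authors' counting could split them and their counts are uncertain to that extent.

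The GTPases act at the membranes around intracellular microbes and are induced strongly by Ifng. Gbp2, Gbp3 and Gbp7 are guanylate-binding proteins, and Igtp, Irgm1 and Iigp1 belong to the immunity-related GTPase family. Gbp2 was the most abundant, at 41.6 FPKM. It stood at 93.2, 101, 121 and 99.3 CPM in WT1 to WT4 and at 146, 94.7, 77.1 and 110 CPM in KO1 to KO4. Wild-type library 1 was the lowest of its genotype for this gene and knockout library 1 the highest of its own. Gbp2 averaged 104 ± 11.96 CPM in WT and 107 ± 29.3 CPM in KO fat (SD, n = 4 each), with a log2FC of 0.05 ± 0.18 (SE). The 6 GTPases had log2FC values from -0.21 (Gbp7) to 0.17 (Igtp), 4 below 0 and 2 above. Igtp, picked after its values were seen, stood at 39.8 CPM in wild-type library 1 against 28.5 to 30.1 CPM in the other 3. In knockout library 1 it stood at 56.2 CPM against 26.5 to 31.1 CPM in the other 3.

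Since library 1 of each genotype was high in these genes, the comparison was repeated without each of them. Leaving out a library that is high in a gene in itself lowers (knockout) or raises (wild-type) that gene's log2FC. Knockout library 1 was the highest of its genotype in 33 of 34 genes, against 24.6% of all genes. The counts without it were therefore largely set by that choice, and the shares over all genes are not a like comparison. Without knockout library 1 the log2FC was below 0 in 34 of 34 genes, against 52.2% of all genes, with a median of -0.44. At an unadjusted p under 0.05, 8 of the 34 were lower (6.46% of all genes): Gbp3, Xaf1, Iigp1, Ifit3, Ifit2, Rsad2, Oas3 and Gbp7. None of the 34 was called by edgeR (0, against 1.92% of all genes), the lowest adjusted p being 0.140 for Gbp3 (0.140 to 0.988 over its alternatives). Knockout libraries 2 to 4 all lay below every wild-type library in 8 genes (6.82% of all genes), namely Stat2, Ifih1, Ddx60, Ifit2, Ifit3, Rsad2, Xaf1 and Gbp3. Gbp3 shows the pattern, with 46.6, 37.4, 40.3 and 34.96 CPM in WT1 to WT4 and 55.3, 31.0, 27.7 and 31.6 CPM in KO1 to KO4. Xaf1, which encodes a factor linked to apoptosis, stood at 31.7, 26.7, 23.2 and 22.5 CPM in WT1 to WT4 and 28.3, 17.7, 18.5 and 20.3 CPM in KO1 to KO4. Both were picked after their values were seen.

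With any single library left out except wild-type library 1, the median log2FC of the 34 genes stayed below 0. It was -0.07, -0.09 and -0.05 without knockout library 2, 3 or 4. Without wild-type library 2, 3 or 4 it was -0.11, -0.22 and -0.26. Without wild-type library 1 the log2FC was above 0 in 18 of 34 genes (50.8% of all genes), with a median of 0.00. Without wild-type library 1 and knockout library 1 together, an alternative added after the data were seen, it was below 0 in 33 of 34 (50.7% of all genes), Oas1a being the exception, with a median of -0.23. In that comparison 3 genes (Ifit3, Xaf1 and Gbp3) were lower at an unadjusted p under 0.05, against 6.39% of all genes. None of the 34 was called by edgeR (0, the lowest adjusted p being 0.205), but neither was any other gene (0.0% of all genes). These genes moved together and do not count as 34 separate results. Over the 561 pairs of genes, the Pearson correlation of log2 CPM across 8 libraries had a median of 0.81 and was positive in 550. Across the 6 libraries other than the 2 numbered 1, its median was 0.47, positive in 479 pairs. These correlations share the same libraries and their depths and describe these libraries only.

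The genes most like the 34 as a whole were found by correlating each other gene's log2 CPM with the mean standardised profile of the 34 across 8 libraries. The closest was Plek, the protein pleckstrin of blood and immune cells, with a correlation of 0.98 (0.92 across the 6 libraries without number 1). Next came Zfp943, Slfn8, Trim12a, Ifi47, Trim30b, Trim34a, Gm4951, C230037L18Rik and Trim12c, from 0.98 down to 0.96. Across the 6 libraries these ran from 0.91 (Slfn8) down to 0.75 (Trim34a). Ifi47 is an immunity-related GTPase. None of these 10 was called between genotypes by edgeR (0.405% of all genes were), their adjusted p-values running from 0.676 (Trim12c) to 0.916 (Ifi47). They were picked for likeness to a profile that was high in library 1 of both genotypes. The lack of calls was therefore largely set by the choice. Of the 34 genes themselves the median correlation was 0.90, with Trim30a highest at 0.98 and Gbp2 (0.37) and Ifi35 (0.11) lowest. Trim12a and Trim12c each overlap Trim34a, so these counts are uncertain.

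Markers of several immune cell types, though not of all, were highest in the libraries numbered 1. The 6 B cell markers (among them Cd79a, Cd79b and Ms4a1) summed to 308 CPM in wild-type library 1 against 69.5 to 126 CPM in the other 3. They summed to 163 CPM in knockout library 1 against 80.8 to 105 CPM in the other 3, and library 1 was highest of its genotype for 6 of 6 genes in both. The 10 T and NK cell markers (among them Cd3e, Cd4 and Cd8a) summed to 141 CPM in wild-type library 1 against 33.7 to 62.0 CPM. They summed to 90.3 CPM in knockout library 1 against 37.5 to 72.7 CPM, and library 1 was highest in 9 of 10 and 8 of 10 genes. The 5 monocyte markers summed to 152 CPM in wild-type library 1 against 58.8 to 74.4 CPM and to 127 CPM in knockout library 1 against 74.6 to 93.4 CPM, with 5 of 5 genes highest in library 1 of each. Dendritic cell markers were highest there in 5 of 6 and 4 of 6 genes. The 10 macrophage markers did not single out library 1, summing to 1671 to 2267 CPM in wild-type and 1768 to 2360 CPM in knockout libraries, with 4 of 10 and 3 of 10 genes highest in it. Plasmacytoid dendritic cell markers, 5 genes of low level, summed to 14.1 CPM in wild-type library 1 against 4.76 to 6.68 CPM. In knockout library 1 they summed to 6.62 CPM against 4.33 to 11.4 CPM, with 1 of 5 genes highest in it. The 6 neutrophil markers summed to 21.3 CPM in wild-type library 1 against 12.2 to 15.2 CPM and to 23.1 CPM in knockout library 1 against 12.1 to 16.7 CPM, with Ly6g at 0 in every library.

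Markers of other cells and tissues also differed between libraries. The 8 endothelial markers, genes of vessel cells, summed to 1827 to 2082 CPM in wild-type and 1504 to 1724 CPM in knockout libraries, without overlap. The 7 markers of adipocyte progenitors summed to 2401 to 3187 CPM in wild-type and 1936 to 2379 CPM in knockout libraries, also without overlap. Neither of these sums was highest in library 1 of either genotype. The 5 mesothelial markers (60.4 to 302 CPM) and the 5 erythroid markers (369 to 544 CPM) overlapped between genotypes. Knockout library 1 carried 214 CPM of 10 prostate and seminal vesicle genes against at most 4.18 CPM in any other library. Nearly all of it came from Tgm4 (146 CPM) and Pbsn (67.9 CPM), both prostate genes, while Sbp was at 0 in every library. Knockout libraries 2 and 3 carried 523 and 514 CPM of 10 duct epithelium genes. Knockout libraries 1 and 4 carried 29.5 and 46.3 CPM and the wild-type libraries 8.37 to 18.4 CPM, so the genotypes did not overlap in this sum. Without knockout libraries 2 and 3 the log2FC of the 34 genes was above 0 in 21, against 7205 of 15191 genes tested in that comparison. Its median was 0.04, against -0.01 over all genes. That comparison keeps knockout library 1, the highest of its genotype in 33 of the 34 genes. Of 85 genes tested on all the marker lists, 0 were called between genotypes by edgeR (0.405% of all genes). At an unadjusted p under 0.05 there were 15 (16.2% of all genes), and DESeq2 called 13 (5.48% of all genes). These 13 were 7 duct epithelium genes, 4 endothelial genes (Egfl7, Emcn, Pecam1 and Tie1) and 2 adipocyte genes (Retn and Slc2a4). The part of these cells and tissues in the interferon gene levels was not tested.

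**Figure D3:**
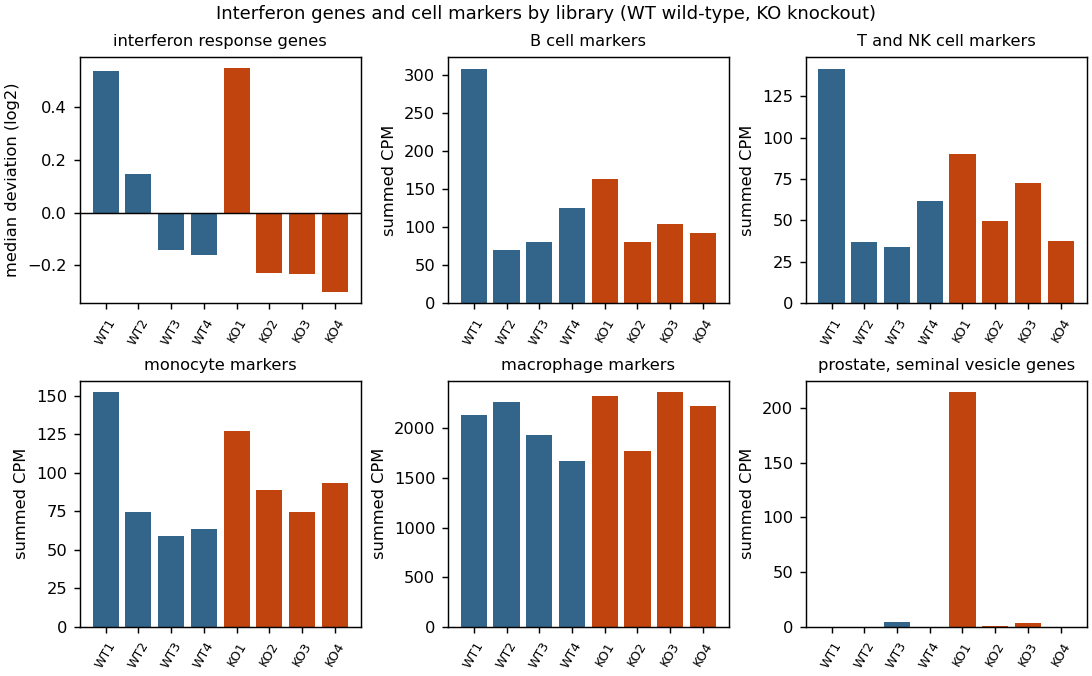
The first panel gives, for each library, the median over the 34 genes of log2 CPM minus the gene's mean; the others give summed CPM of marker genes of named cell types or tissues, with wild-type (WT) libraries in blue and knockout (KO) libraries in orange. WT1 and KO1 are the tallest of their genotype for interferon response genes, B cell, T and NK cell and monocyte markers, the macrophage markers do not follow them, and prostate genes are high in KO1 alone, at 214 CPM.

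Further genes of the pathway came from lists of interferons, receptors and kinases, transcription factors, inhibitors, sensors and adaptors, other induced genes, MHC class I presentation and the Ifi27 family. Of 141 genes on these lists 132 were found and 116 were tested. Of those 116, edgeR called 2, both lower in knockout fat, against 0.405% of all genes in either direction. At an unadjusted p under 0.05 there were 13, against 16.2% of all genes. Among the genes found, the genotypes did not overlap in 1 of 9 receptors and kinases and 3 of 65 other induced genes. They also did not overlap in 1 of 11 MHC class I genes and 2 of 3 Ifi27 family genes. The remaining lists held 0 such genes, and the share over all genes tested was 8.86%. The same shares over all genes stand beside every list below. The interferons themselves were at the edge of detection. Of 14 interferon genes found, 11 (Ifnb1 among them) had 0 reads in all 8 libraries together, which allows up to 0.0253 CPM, and Ifnab and Ifnk had 1 read each. Ifng had 1, 3, 3 and 5 reads in WT1 to WT4 and 8, 1, 3 and 2 in KO1 to KO4, too few to be tested. Such limits cover counting error only.

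Of the receptors and kinases, 0 of 9 were called by edgeR, and 2 had an unadjusted p under 0.05. The type I receptor gene Ifnar1 had a log2FC of -0.10 ± 0.07 (SE), and Ifnar2, which shares its locus with Il10rb on the same strand, one of 0.03 ± 0.07 (SE). For the type II receptor, Ifngr1 had a log2FC of -0.04 ± 0.09 (SE). Ifngr2 stood at 49.4, 50.0, 49.5 and 48.3 CPM in WT1 to WT4 and 43.9, 43.8, 40.6 and 44.6 CPM in KO1 to KO4, ranges that did not overlap. Its log2FC was -0.19 ± 0.06 (SE), and its adjusted p of 0.186 by edgeR did not pass. The other gene of low p was Ifnlr1, the lambda interferon receptor subunit, at a log2FC of 1.11 with an adjusted p of 0.233. Its levels were 1.49 to 4.97 CPM in knockout and 0.917 to 1.70 CPM in wild-type libraries, highest in knockout libraries 2 and 3.

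Among 8 transcription factors 0 were called by edgeR, and 1 had an unadjusted p under 0.05. Irf1, a factor that Ifng induces, had a log2FC of -0.11 ± 0.15 (SE), and Irf5, which acts downstream of pathogen receptors and overlaps Tnpo3 on the opposite strand, one of 0.17 ± 0.12 (SE). Nlrc5, the activator of MHC class I genes, stood at 77.7, 50.7, 45.9 and 66.5 CPM in WT1 to WT4 and 55.7, 35.9, 36.7 and 36.0 CPM in KO1 to KO4. The ranges overlapped through knockout library 1, and the log2FC of -0.55 ± 0.20 (SE) had an adjusted p of 0.226 by edgeR.

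Of 11 genes of MHC class I presentation 0 were called by edgeR, and 1 had an unadjusted p under 0.05. That gene, H2-D1, a classical class I heavy chain, averaged 1284 ± 74.6 CPM in WT and 954 ± 60.6 CPM in KO fat (SD, n = 4 each), and the genotypes did not overlap. Its log2FC of -0.43 ± 0.10 (SE) had an adjusted p of 0.107 by edgeR, while DESeq2 gave it 4.1e-06 (over all alternatives, 4.1e-06 to 0.471). H2-D1 belongs to a family of near-identical genes, so its count is uncertain. Tapbp, which loads peptide onto class I molecules, had a log2FC of 0.17 ± 0.09 (SE). The 6 inhibitors had 0 calls, with 0 at an unadjusted p under 0.05, and log2FC values from -0.13 (Ptpn11) to 0.18 (Ptpn2, a tyrosine phosphatase). The 16 sensors and adaptors also had 0 calls by edgeR. The lowest p among them was that of Mavs, the adaptor of Ifih1 and Ddx58, at a log2FC of -0.20 ± 0.07 (SE) and an adjusted p of 0.217. Mavs was the 1 gene of the list at an unadjusted p under 0.05, and Eif2ak2, the kinase PKR, followed at a log2FC of -0.16 ± 0.11 (SE).

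The 63 other induced genes tested gave 0 calls by edgeR and 6 genes at an unadjusted p under 0.05 (16.2% of all genes). Their log2FC was below 0 in 43 (52.4% of all genes) and above 0 in 20. Gbp11, a guanylate-binding protein, stood at 2.75, 2.76, 1.48 and 2.23 CPM in WT1 to WT4 and 5.54, 3.56, 7.29 and 8.17 CPM in KO1 to KO4. Its ranges did not overlap, and its log2FC of 1.41 ± 0.31 (SE) had an adjusted p of 0.0992 by edgeR and 0.0023 by DESeq2 (over all alternatives, 0.0023 to 0.250). Znfx1, an RNA-binding helicase, had a log2FC of -0.30 ± 0.09 (SE) and an adjusted p of 0.148 by edgeR and 0.029 by DESeq2 (over all alternatives, 0.029 to 0.634). The chemokine genes Cxcl9 and Cxcl10, whose products draw in T cells, were looked at after their values were seen. Cxcl10 stood at 32.7 CPM in knockout library 1, 6.44 to 14.4 CPM in the other knockout libraries and 4.06 to 7.65 CPM in wild-type libraries. Its log2FC was 1.55 ± 0.49 (SE), with an adjusted p of 0.176 by edgeR and 0.0277 by DESeq2. It lies within Art3 on the opposite strand, which had far more reads, so its count is uncertain. Cxcl9 stood at 132 CPM in knockout library 1, against 52.6 to 71.0 CPM in the other knockout libraries and 53.3 to 76.9 CPM in wild-type libraries.

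The Ifi27 family held the 2 genes of the pathway lists that edgeR called. DESeq2 called 6 of the 116 genes tested, where it called 5.48% of all genes, adding H2-D1, Gbp11, Znfx1 and Cxcl10. Ifi27l2a stood at 712, 587, 980 and 768 CPM in WT1 to WT4 and 288, 181, 227 and 153 CPM in KO1 to KO4, so every knockout library lay below every wild-type library. Its log2FC was -1.85 ± 0.22 (SE), lower in 4 of 4 knockout libraries, with an adjusted p of 0.0188 by edgeR. Ifi27l2b gave -1.86 ± 0.24 (SE) and an adjusted p of 0.0219, but its gene model overlaps that of Ifi27l2a on the same strand, so these are not independent. Ifi27, the remaining member tested, had a log2FC of -0.03 ± 0.14 (SE). The fall in Ifi27l2a thus stood beside 34 listed interferon genes of which 0 were called, in the same libraries. Both calls were lost without wild-type library 1, 2 or 4 or knockout library 2 or 3. Without wild-type library 3, 1 of the 2 was lost. Calls over all genes also fell in these fits, from 41 higher and 19 lower. They were 3 and 4 without wild-type library 1, 1 and 3 without wild-type library 2, and 6 and 2 without wild-type library 4. They were 0 and 0 without knockout library 2, 18 and 5 without knockout library 3, and 12 and 8 without wild-type library 3. Ifi27l2a kept a log2FC of -1.70 or lower in every alternative.

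**Figure D4:**
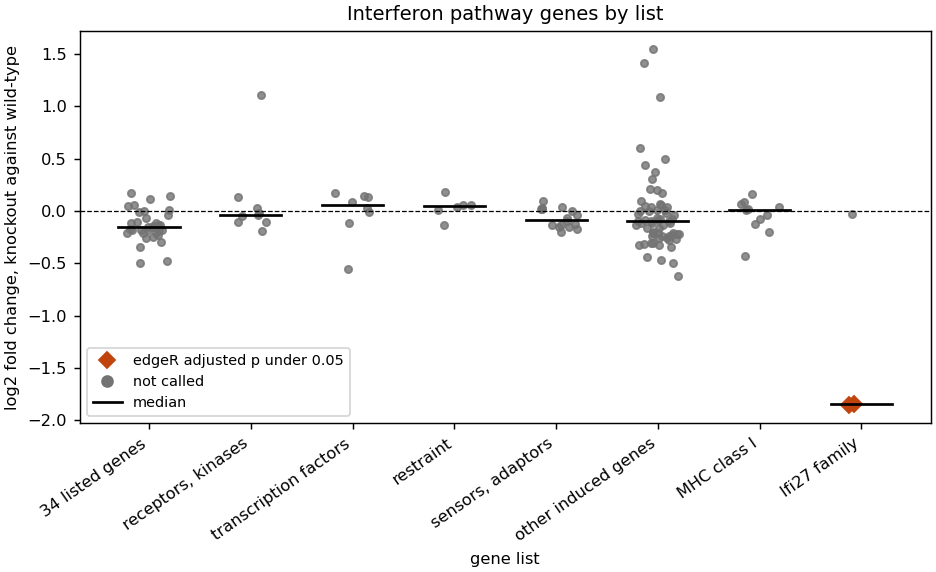
Log2 fold changes, knockout against wild-type, of the 34 genes and of the tested genes on 7 pathway lists; each point is a gene, black lines are list medians and orange diamonds mark genes at an edgeR adjusted p under 0.05. The 34 genes lie between -0.49 and 0.17, and the 2 diamonds, near -1.85, are the overlapping genes Ifi27l2a and Ifi27l2b.

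The promoter matches were set beside the library pattern as a description. The 15 genes with the ISRE core exceeded the mean of the other knockout libraries in knockout library 1 by a median factor of 1.83, and the 11 without it by 1.60. The groups overlapped. With the core the factor ran from 1.37 (Stat2) to 4.20 (Oas3, which held a single match), and without it from 0.993 (Ifi35) to 2.59 (Oasl1). Ifit1, with 2 matches, stood at 24.3, 12.5, 7.55 and 10.8 CPM in WT1 to WT4 and 22.3, 9.26, 9.19 and 6.34 CPM in KO1 to KO4, and was named here for its printed promoter.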

How the data were processed

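RNA was measured in 4 WT and 4 KO libraries of epididymal fat. Per the labels' protocols, poly(A) RNA was bead-purified, made into stranded TruSeq libraries, pooled, and sequenced as single reads of 50 cycles. Novoalign 2.8.1, Picard and build mm10 appear in the submitters' processing notes, and no source used here states the counting program, its strand setting or the annotation. Per the file headers, the table that the authors deposited lists read counts and FPKM for every gene in each library. The deposited counts are whole numbers with unequal totals and were used as raw counts. The authors' FPKM values are the counts divided by exonic length and library total (158499 of 158499 values above 0 matched within 0.1%) and were used only to compare levels between genes. No 2 libraries of a genotype agreed within sampling noise (lowest chi-square per gene 20.8). P-values measure the spread between the libraries, which were taken to be 1 per mouse from the numbering in the labels.

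Genes, lists and tests were chosen with earlier results of these data known. Genes were matched by the table's own names, and 3641 genes without a name were kept under their identifiers. Of the pathway list, 12 genes were found by gene ID. The test was edgeR 4.0.16 in R 4.3.3: filterByExpr (minimum count 10), TMM scaling, quasi-likelihood F test without covariates, and Benjamini-Hochberg adjustment over 14800 genes, called at 0.05. Log2 CPM values for correlations used a prior count of 2. The script was tested on simulated data. Promoter windows cover 250 bases upstream of each RefSeq gene start.

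Every listed gene could be named. Per-library values were to be given for those with an unadjusted p under 0.05, those whose genotypes did not overlap, and the most abundant by FPKM of each role. Of the pathway lists, the rule took Irf1, the interferon receptors, Ifnb1, Ifng, Ifi27, Ifi27l2a, any called gene and the 2 lowest p of each list. Genes outside these rules are marked in the text, and 1 gene that the rule took is not reported here. Alternatives were DESeq2 1.42.0, limma-voom (limma 3.58.1), robust edgeR, scaling by RLE, upper quartile or library size alone, a filter of 1 CPM in 4 libraries or none, a block for replicate number, each library left out, and knockout libraries 2 and 3 left out. Leaving out library 1 of both genotypes was added after the data were seen.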

Additional observations from a re-analysis of the deposited data

Results flagged for a closer look

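A library was singled out here when its gap to the nearest of the other 3 libraries of its genotype exceeded Dixon's 95% critical share of that genotype's range. For normally distributed values, chance alone singles out about 1 in 20 groups. The rule was applied only to 134 groups of listed genes and marker sums, so the share over all genes is not known. Of 68 groups of interferon response genes (34 genes in each genotype), 14 met this rule, 11 by a high value in knockout library 1 and 3 by a high value in wild-type library 1. The genes move together, so these are not separate events.

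In knockout library 1 the sensors stood out as Ifih1 at 47.5 CPM, Ddx60 at 16.9 CPM, Oas2 at 29.9 CPM, Oas3 at 8.003 CPM and Oasl1 at 8.003 CPM. Isg15 at 11.4 CPM and its ligase Herc6 at 26.9 CPM did so too. The effectors were Mx1 at 13.5 CPM and Rtp4 at 25.7 CPM, and the GTPases Gbp3 at 55.3 CPM and Igtp at 56.2 CPM. In wild-type library 1, Ddx60 at 21.2 CPM, Ifit3 at 31.6 CPM and Igtp at 39.8 CPM lay far above the other wild-type libraries.

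Among the other genes and marker sums, 7 values met it in 66 further groups. Nlrc5 at 55.7 CPM was high in knockout library 1, and Irf1 at 135 CPM was high in wild-type library 1. Ifi27 at 234 CPM was low in knockout library 3 and Ifnar1 at 73.1 CPM was low in wild-type library 3. Summed monocyte markers reached 152 CPM in wild-type library 1. Summed prostate and seminal vesicle genes reached 214 CPM in knockout library 1 and 4.18 CPM in wild-type library 3.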

How the results depend on the processing

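The 34 interferon response genes gave 0 calls in every alternative run. Their median log2FC was -0.15 with all libraries and between -0.17 and -0.13 under the scalings, filters, tests and block. Leaving out 1 library moved it between -0.44 (without knockout library 1) and 0.00 (without wild-type library 1). Leaving out knockout libraries 2 and 3 gave 0.04. Of 646 values of single genes under alternatives, 71 changed sign, all of them uncalled. The pathway lists gave 2 calls, 6 with DESeq2, 0 with the replicate block, 0 without knockout libraries 2 and 3, 0 without library 1 of both genotypes, and 0 to 2 with 1 library left out. Atg3 had a log2FC of -0.73. It missed the threshold with the replicate block (-0.73, adjusted p 0.111 by edgeR, the highest of a range from 2.2e-09), without knockout libraries 2 and 3 (-0.77) and without library 1 of both genotypes (-0.75), and ran from -0.78 to -0.69 with 1 library left out, missing it without wild-type library 1 or 4 or knockout library 2. Over all genes the 60 calls became 810 with DESeq2, 14 with the block, and 0 (without knockout library 2) to 290 (without knockout library 1) with 1 library left out. The cause was not tested. Same-numbered libraries correlated at 0.18, -0.11, -0.25 and 0.06 in their deviations, so the numbers were not taken to pair mice. With 4 libraries a side, the 95% interval of the log2FC was as wide as -1.49 to 1.12 (Oas3).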
